A study of Mus musculus with 4 samples.

Results

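The ABC transporters on the array were the 45 genes, among 27962 gene names in all, whose name begins with Abc, a letter from a to g and a number, without Abca1, Abcb11, Abcg5 and Abcg8. They carried 88 probes. A single probe read 16 of the genes, and the 29 with more than 1 are given by their brightest probe over the 4 arrays. Male C57BL/6J mice, 13 weeks old, received 1 of 2 purified diets over 4 weeks. The low-NP diet held little nucleoprotein, with nucleic acids at 0.03%, and the NP diet was that diet plus 1.2% of the nucleoprotein preparation S-nuclegen, which raised nucleic acids to 0.5%. Total RNA of liver and of spleen had been pooled within each diet group, the labels do not say how many mice a pool held, and each tissue was hybridised on 2 arrays with both dyes. Array 1 carried the NP pool in Cy5 and array 2 carried it in Cy3. Both arrays of a tissue are labelled as a dye swap and were read as repeats of 1 pair of pools. The labels also number the pooled samples of a tissue 1 and 2, so separate pools on each array are possible, and ± would then include the difference between pools. As read here, a diet has 1 replicate in each tissue, no test was run, and no difference between diets has a replicate check.

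ABC transporters are membrane proteins that bind and split ATP to move a substrate across a membrane. Full transporters join both pairs of membrane and nucleotide-binding domains in a single chain, and members of the D and G subfamilies and several of the B subfamily are shorter proteins that work as dimers. In liver they export phospholipid, sterols, bile salts and conjugated drugs into bile, and members in the peroxisome and the mitochondrion move fatty acyl chains and porphyrins. In leukocytes they move lipids, leukotriene conjugates and cyclic nucleotides, while the E and F subfamilies have no membrane domain and act on ribosomes.

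The 4 arrays lie on 1 slide. Spots well above background made up between 59.3% and 94.8% of a channel, and spleen array 1 had brighter negative controls (median 156 in Cy3 and 307 in Cy5) than spleen array 2 (62.7 and 71.9). Genes were taken as measured in a tissue if, on each of its arrays, the probe stood well above background in 1 channel or more. By that rule 33 ABC transporters were measured in liver and 36 in spleen, and the 33 were all among the 36. The 9 measured in neither tissue were Abca4, Abca13, Abca14, Abca15, Abca16, Abcb5, Abcc8, Abcc10 and Abcc12, and Abca17, Abcb1a and Abcg4 were measured in spleen only. No ABC transporter probe was saturated. Levels below are log2 intensities after normalization, which compare pools for a single probe and not probes with each other. Each mean is of both arrays, and ± gives how far either array lies from it.

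The first question was how these genes differed between the NP and the low-NP spleen pool. In the NP spleen pool 6 of the 36 measured ABC transporters were lower than in the low-NP spleen pool by at least 1.5-fold on both arrays, and 0 were higher. They were Abcc2, Abcd3, Abca6, Abca8b, Abcb4 and Abcb6, with differences from 1.68-fold for Abcb6 to 9.66-fold for Abcc2. The NP reading of Abcc2 was flagged well above background on 1 of 2 arrays and was near background on both. Among all 18567 measured genes the same rule called 6.33% lower and 0.0431% higher. The median log2 ratio of NP over low NP, a sign opposite to that of the deposited value table, was -0.03 over the 36 ABC transporters and -0.02 over all measured genes, so most of the members lay near 0.

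**Figure D1:**
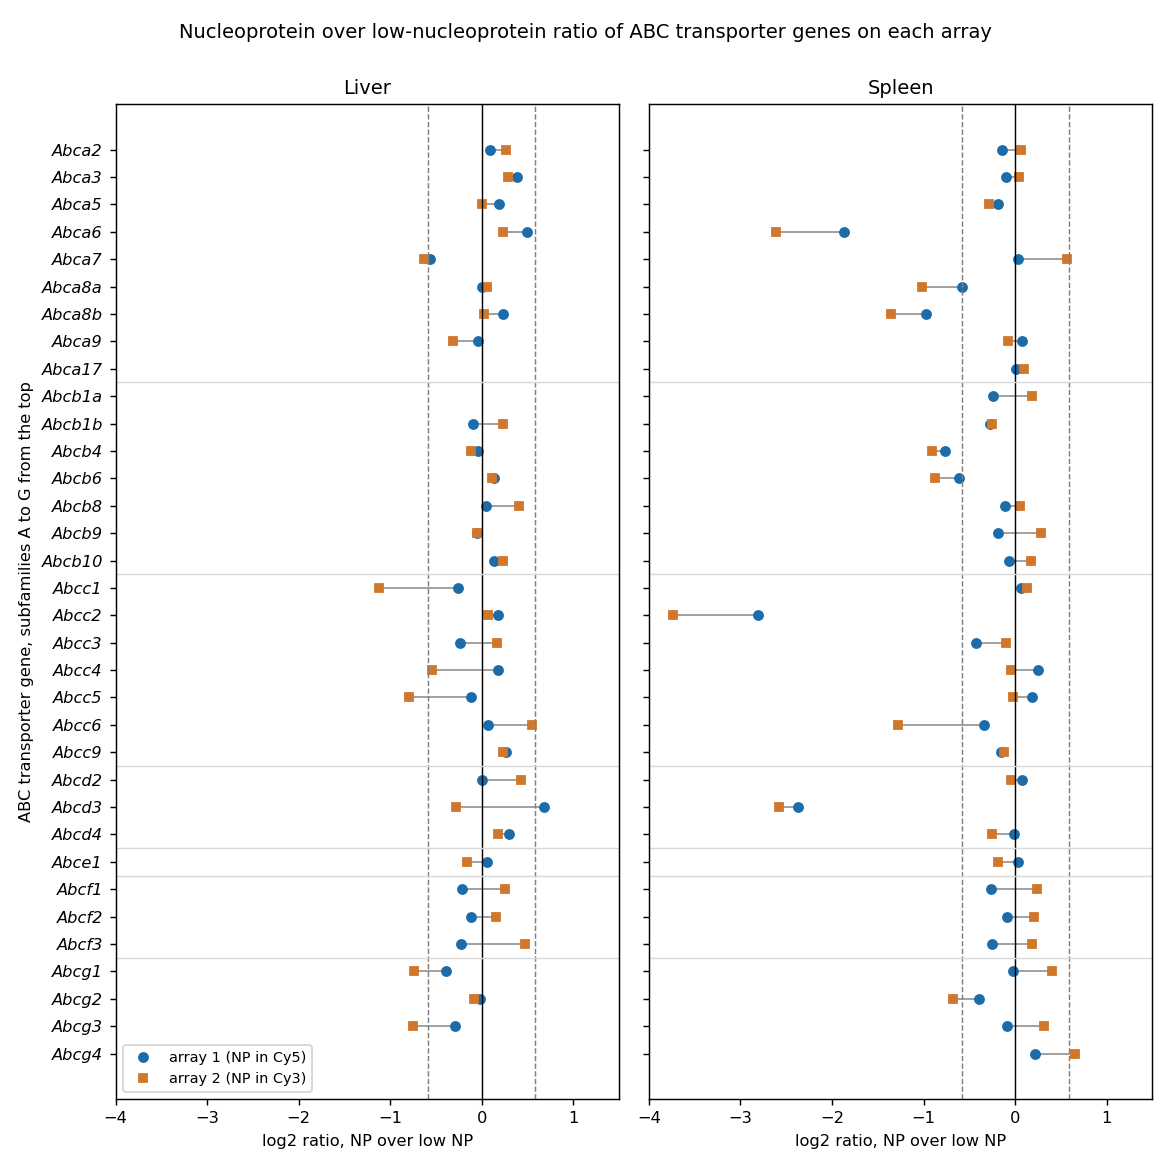
Log2 ratio of the NP pool over the low-NP pool (x axis) for 34 of the 36 ABC transporters measured in spleen, with 1 point per array in liver and in spleen and dashed lines at 1.5-fold. The 6 genes beyond the lower line on both spleen arrays run from -0.75 for Abcb6 to -3.27 for Abcc2 on the mean, and no gene lies beyond a line on both liver arrays.

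Markers of other cell types moved in the same 2 spleen pools. All 8 hepatocyte markers found, of 10 listed, were called lower in the NP spleen pool, with a median log2 ratio of -7.38. Their summed log2 level was 19.8 to 20.2 in the low-NP spleen pool, 12.0 to 13.5 in the NP spleen pool and 19.6 to 20.5 over both liver pools. None was at background throughout the NP spleen pool, where 8 were well above background on array 1 and 7 on array 2. All 8 exocrine pancreas markers were also called lower (median -2.13), as were 2 of 5 bile duct markers, Krt8 and Krt18, while 3 of 7 erythroid markers were called higher (Ank1, Rhd and Hemgn, 0.67 to 0.74). None of the 6 B cell, 6 T cell or 6 macrophage markers was called in spleen. The part of these markers in the ABC transporter values was not tested. In pooled tissue RNA fewer cells of a type, less RNA per cell and any other source of a difference between pools cannot be told apart.

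The exporters of bile come first. Abcc2 (MRP2) pumps conjugated bilirubin and glutathione conjugates across the canalicular membrane of hepatocytes. Its probe lies at chr19:43731462-43731521 on the plus strand of mm7. In spleen its level was 9.61 on array 1 and 10.74 on array 2 in the low-NP pool, against 6.80 and 7.0045 in the NP pool. Its log2 ratio was -3.27 ± 0.47, the lowest among the ABC transporters, and both NP readings lay below both low-NP readings. The NP spleen pool was flagged well above background on array 1 alone, the array with the brighter negative controls. Its level there, 6.80, was below those of the members measured in neither tissue, 7.46 to 8.46. The fold thus rests on NP readings near background on both arrays, and its size is uncertain beyond its ±. Over the alternatives the ratio ran from -2.81 to -4.88, the latter with the scanner's processed signals. In liver the level was 12.82 and 12.89 in the low-NP pool and 12.99 and 12.96 in the NP pool, a ratio of 0.12 ± 0.05.

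Abcb4, known in mouse as MDR2, moves phosphatidylcholine into bile. Its spleen level was 13.51 and 13.48 in the low-NP pool and 12.75 and 12.57 in the NP pool. The log2 ratio was -0.83 ± 0.07, a 1.78-fold difference with the arrays close together. In liver the ratio was -0.08 ± 0.04. A pair of probes from separate places read the gene, and both were called lower in spleen, at -0.83 ± 0.07 for the more 3′ probe and -0.69 ± 0.00 for the other. The sequences are shown because these separate stretches of the transcript gave like values. Positions are in mm7, plus strand.
Abcb4 3′ probe, chr5:8996752-8996811: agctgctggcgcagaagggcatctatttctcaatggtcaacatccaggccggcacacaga
Abcb4 inner probe, chr5:8978600-8978659: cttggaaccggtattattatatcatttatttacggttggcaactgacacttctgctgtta

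Of the other exporters of drugs and conjugates, none was called in spleen. Abcc6, a liver transporter needed for the ATP release that restrains calcification, came to -0.81 ± 0.47, with -0.34 on array 1 and -1.28 on array 2. It was well above background in the NP spleen pool on array 1 alone. Abcg2, an exporter of urate and many drugs, was at -0.54 ± 0.14, which lies past 1.5-fold on array 2 only. Abcc3, the basolateral conjugate pump of hepatocytes, was at -0.26 ± 0.16. Abcb1b and Abcb1a, the rodent pair of P-glycoproteins that expel drugs, gave -0.27 ± 0.01 and -0.03 ± 0.21. Another measured probe of Abcb1b gave -0.01 ± 0.07, so its value depends on the probe. Whether probes of the near copies Abcb1a and Abcb1b bind each other's RNA was not tested.

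Abcd3 (PMP70) is the peroxisomal importer of branched-chain acyl chains and of bile acid intermediates. In spleen its level was 14.38 and 14.32 in the low-NP pool and 12.01 and 11.74 in the NP pool. The log2 ratio was -2.47 ± 0.11, or 5.56-fold. In liver its arrays lay on opposite sides of 0, with 0.68 on array 1 and -0.28 on array 2. Of the other D members, Abcd2, a peroxisomal importer of fatty acyl chains, was at 0.01 ± 0.06 in spleen, and Abcd4, a lysosomal protein of vitamin B12 export, at -0.13 ± 0.12.

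The 3 Abcd3 probes did not give the same size of ratio. The brightest, at chr3:121527762-121527821 on the minus strand and the most 3′ of them, gave -2.47 ± 0.11. The inner probes gave -0.72 ± 0.20 and -0.83 ± 0.55, both below 0 on the mean and neither called. Both inner probes cross a splice junction, since their 60 bases span 1682 and 140 bases of the genome. They are shown as the transcribed stretches on which the size of the Abcd3 value depends, minus strand, mm7.
Abcd3 inner probe 1, chr3:121541112-121542793: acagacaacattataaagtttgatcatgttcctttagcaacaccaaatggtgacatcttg
Abcd3 inner probe 2, chr3:121542846-121542985: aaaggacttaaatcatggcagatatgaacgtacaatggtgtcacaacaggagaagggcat

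Abca8b and Abca6 belong to a run of A subfamily genes that lie next to each other in the order Abca8b, Abca8a, Abca9, Abca6 and Abca5 on chromosome 11. Mouse Abca8b promotes cholesterol efflux. Its level in spleen was 7.85 and 8.94 in the low-NP pool and 6.88 and 7.59 in the NP pool, a ratio of -1.16 ± 0.20. The low-NP reading of array 1 lay above both NP readings by a small margin, and the within-array differences were -0.97 and -1.36. Abca6 had a level of 9.20 and 10.27 in the low-NP pool and of 7.33 and 7.66 in the NP pool, a ratio of -2.24 ± 0.37. The NP readings of both genes were flagged well above background but were low. As a rough guide to background, members measured in neither tissue read 7.46 to 8.46 on array 1 of that pool and 6.92 to 7.59 on array 2. The sizes of both folds are thus uncertain beyond their ±. The neighbours of Abca8b and Abca6 were not called. Abca8a was at -0.80 ± 0.22, with array 1 at -0.58 just short of the 1.5-fold line (0.585 on the log2 scale), Abca9 was at 0.00 ± 0.07, and Abca5, named here for its position after its value was seen, was at -0.24 ± 0.05.

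Both Abca6 probes were called lower in spleen, at -2.24 ± 0.37 (chr11:110345551-110345610) and -1.92 ± 0.79 (chr11:110289291-110289350, minus strand, mm7). The Abca8b probes differed. Its brightest probe, at chr11:110044772-110044831, gave -1.16 ± 0.20. The other gave -0.01 ± 0.16, with its 60 bases spread over 867 bases of the genome. That probe is shown because it was measured in spleen without a difference past the line.
Abca8b inner probe, chr11:110061730-110062596, minus strand, mm7: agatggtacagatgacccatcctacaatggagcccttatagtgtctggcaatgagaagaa

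**Figure D2:**
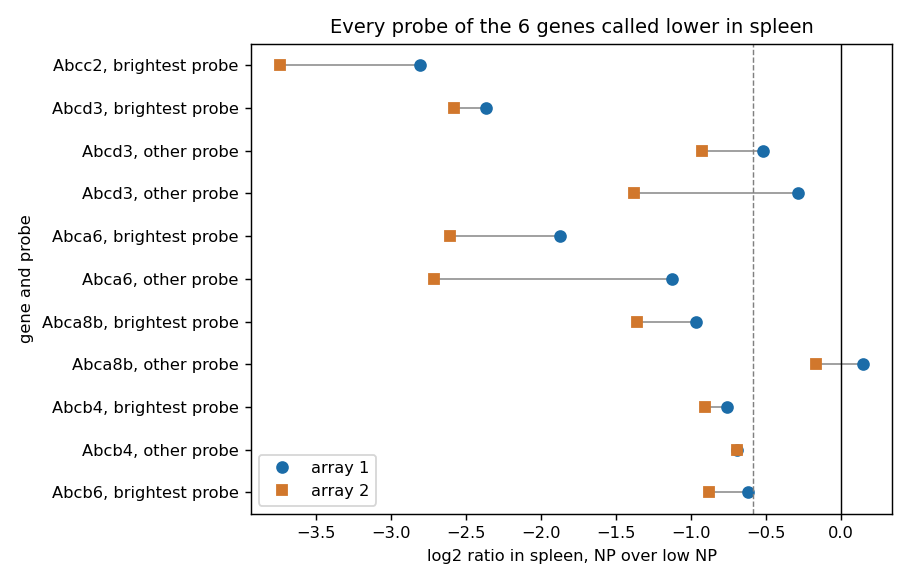
Log2 ratio of the NP over the low-NP spleen pool (x axis) for every probe of the 6 genes called lower (y axis), with 1 point per array joined by a line and a dashed line at 1.5-fold. Abcb4 and Abca6 have all their probes beyond the 1.5-fold line, whereas the inner Abcd3 probes (-0.72 and -0.83) and the inner Abca8b probe (-0.01) lie nearer to 0 than the probe used.

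Abcb6 carries porphyrins across membranes and was the sixth gene called lower. Its spleen level was 10.96 and 10.91 in the low-NP pool and 10.34 and 10.03 in the NP pool, a ratio of -0.75 ± 0.13. Its single probe lies at chr1:75395105-75395164 on the minus strand of mm7. With the scanner's own processed signals it came to -0.64 and was no longer called. Mitochondrial members were close to 0 in spleen, with Abcb10, which serves heme synthesis in red cell precursors, at 0.05 ± 0.12 and Abcb8 at -0.03 ± 0.08. The lysosomal peptide transporter Abcb9 was at 0.05 ± 0.23.

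Apart from Abca8b, given above, the members named for roles in leukocytes and in cell lipid efflux were not called in spleen. Abcg1, which passes cholesterol to HDL, was at 0.19 ± 0.21. Abca7, a phospholipid transporter tied to phagocytosis, was at 0.30 ± 0.27, Abcc1 (MRP1), which exports leukotriene C4, at 0.10 ± 0.03, and Abcc5, which exports cyclic nucleotides, at 0.08 ± 0.10. The rodent gene Abcg3 was at 0.12 ± 0.20. The ribosome recycling factor Abce1 was at -0.07 ± 0.11. Abcf1, Abcf2 and Abcf3 were between -0.03 and 0.06, with arrays on opposite sides of 0 for each of the 3. The highest value in spleen was that of Abcg4 (0.44 ± 0.22), a sterol exporter named after its value was seen, which passed 1.5-fold on array 2 alone.

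By subfamily, 2 of 9 measured A members were called lower in spleen, 2 of 8 B members, 1 of 7 C members and 1 of 4 D members. None was called among the single E member, the 3 F members and the 4 G members. Some sizes depended on the processing: with the scanner's processed signals Abca6 was at -2.83 and Abca8b at -1.91, and with the mean of all probes Abcd3 was at -1.34 and Abca8b, no longer called, at -0.59. Subfamily medians in spleen lay between -0.14 for C and 0.15 for G.

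The same diet comparison in liver called none of the 33 measured ABC transporters in either direction, against 3.63% of all 17100 measured genes called lower and 0.0702% called higher. That background itself depends on the scaling, from 12 higher and 621 lower genes here to 303 higher and 1755 lower with the scanner's processed signals. The median log2 ratio over the ABC transporters was 0.07, with 0.01 on array 1 and 0.07 on array 2. Single values ran from -0.69 for Abcc1 to 0.36 for Abca6.

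Several of the members higher in spleen came close to the line on the low side in liver. Abca7 had levels of 11.59 and 11.75 in the low-NP pool and 11.02 and 11.12 in the NP pool, a ratio of -0.60 ± 0.03. It missed the call because array 1 stood at -0.57, and the arrays lay close together. Abcg1 was at -0.57 ± 0.18 and Abcg3 at -0.53 ± 0.23. Abcc1 was at -0.69 ± 0.43, with -0.26 on array 1 and -1.12 on array 2, and Abcc5 was at -0.46 ± 0.34. All 5 were below 0 on both arrays, past the line on array 2 and short of it on array 1. Without background correction 4 were called (Abca7, Abcc1, Abcg1 and Abcg3), where 7.80% of all measured genes were called lower, so the count of 0 depends on that choice.

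Leukocyte markers moved in the same liver pools. Of the 6 B cell markers 4 were called lower in the NP liver pool (median -3.18), of the 6 T cell markers 5 (median -2.39) and of the 6 macrophage markers 3 (median -0.63). The summed log2 level of the B cell markers was 15.4 to 15.7 in the low-NP liver pool and 11.1 to 11.9 in the NP liver pool, beside 17.78 to 17.97 over both spleen pools. That of the T cell markers was 13.4 to 14.0 in the low-NP liver pool and 10.9 to 11.7 in the NP liver pool, and 15.9 to 16.1 over the spleen pools. All 8 exocrine pancreas markers were called lower in liver too (median -1.11), and none of the 8 hepatocyte markers was called. Their median was 0.97 on array 1 and -0.55 on array 2, and 4 of the 8 passed 1.5-fold in opposite directions on the arrays. The part of these cells in the liver values was not tested.

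Of the members called lower in NP spleen, Abca6 had the highest liver value of all members (0.36 ± 0.13), Abca8b was at 0.13 ± 0.11 and Abcb6 at 0.12 ± 0.01. Abcd3 was at 0.20 ± 0.48, past the line on array 1 only. Abcg2 was at -0.05 ± 0.03, Abcc3 at -0.04 ± 0.20, Abcc6 at 0.31 ± 0.24 and Abcb1b at 0.07 ± 0.16. Another measured probe of Abcb1b gave -0.39 ± 0.29 in liver. In the mitochondrion, Abcb8 was at 0.22 ± 0.18 and Abcb10 at 0.18 ± 0.05. Of the D subfamily, Abcd2 was at 0.22 ± 0.21 and Abcd4 at 0.24 ± 0.06. Abce1 was at -0.05 ± 0.11 and the 3 F members were between 0.02 and 0.12. Subfamily medians in liver ran from -0.53 for the 3 measured G members to 0.21 for the 4 D members, without a call in any of the 7 subfamilies. The ratio was above 0 on both arrays of one tissue and below 0 on both arrays of the other for 11 of the 33 members measured in both tissues, beside 32.3% of all genes measured in both.

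Levels of the ABC transporters in liver and spleen were compared within the same dye and for the same diet. In the NP pools 11 of the 36 measured members were higher in liver by at least 2-fold in both dyes, and 5 were higher in spleen. Among all 18730 genes measured there, 13.8% were higher in liver and 14.9% in spleen. Abcc2 differed most, with NP liver above NP spleen by 6.07 ± 0.11 on the log2 scale. The NP spleen readings of Abcc2 and Abcc6 were not well above background on array 2. Those of Abcc2, Abca6 and Abca8b were near background on both arrays. The differences of these genes are uncertain in size beyond their ±. Abcc2 was followed by Abca6 (4.83 ± 0.22), Abcd3 (4.09 ± 0.04), Abca8b (3.04 ± 0.43), Abcb4 (2.83 ± 0.06), Abcb6 (2.77 ± 0.15), Abca8a (2.58 ± 0.14), Abcc6 (2.53 ± 0.55), Abcb1b (2.00 ± 0.01), Abcg2 (1.94 ± 0.06) and Abcc3 (1.27 ± 0.03). On the spleen side, Abca7 differed by -2.62 ± 0.16, Abcg1 by -2.57 ± 0.11, Abcc1 by -2.07 ± 0.23, Abcg3 by -2.06 ± 0.29 and Abcc5 by -1.69 ± 0.03. In this order each gene from Abca8b to Abcg2 differed from the next by less than the sum of their ± values, as did Abca7 from Abcg1 and Abcc1 from Abcg3, so the order within those runs is not resolved.

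In the low-NP pools the same rule gave 9 members higher in liver and 4 higher in spleen, beside 8.46% and 9.26% of 19169 genes. The difference for Abcc2 was 2.68 ± 0.53 there, for Abca6 2.23 ± 0.45, for Abcb4 2.08 ± 0.02, for Abcb6 1.90 ± 0.02 and for Abcd3 1.42 ± 0.42. Abca7 differed by -1.71 ± 0.14, Abcg1 by -1.81 ± 0.28 and Abcc1 by -1.28 ± 0.23. All 11 liver-high and all 5 spleen-high members thus lay closer together between tissues in the low-NP pools than in the NP pools in both dyes. The same was so for 98.6% of the 2583 liver-high genes and 94.1% of the 2793 spleen-high genes, and genes picked by their difference in the NP pools are more likely to differ less elsewhere. The median narrowing was 0.87 on the log2 scale for the liver-high members and 0.82 for all liver-high genes, and 0.76 and 0.61 on the spleen side. These values rest on the same 4 pools as the diet ratios and add no separate evidence on them.

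**Figure D3:**
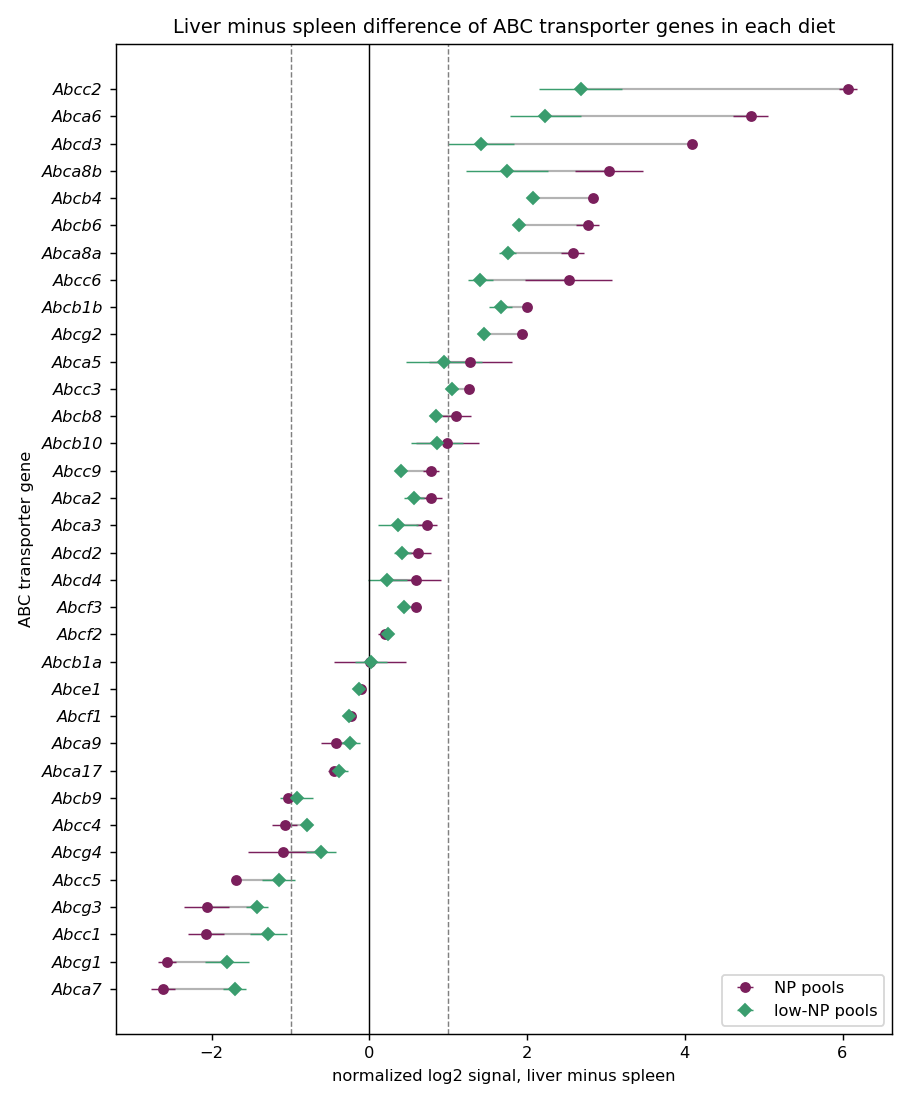
Liver minus spleen difference in log2 level (x axis) for 34 ABC transporters (y axis), with circles for the NP pools, diamonds for the low-NP pools, bars for the distance of each dye from the mean and dashed lines at 2-fold. Abcc2 stands at 6.07 in the NP pools and 2.68 in the low-NP pools, and the spleen-high Abca7 at -2.62 and -1.71.

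**Figure D4:**
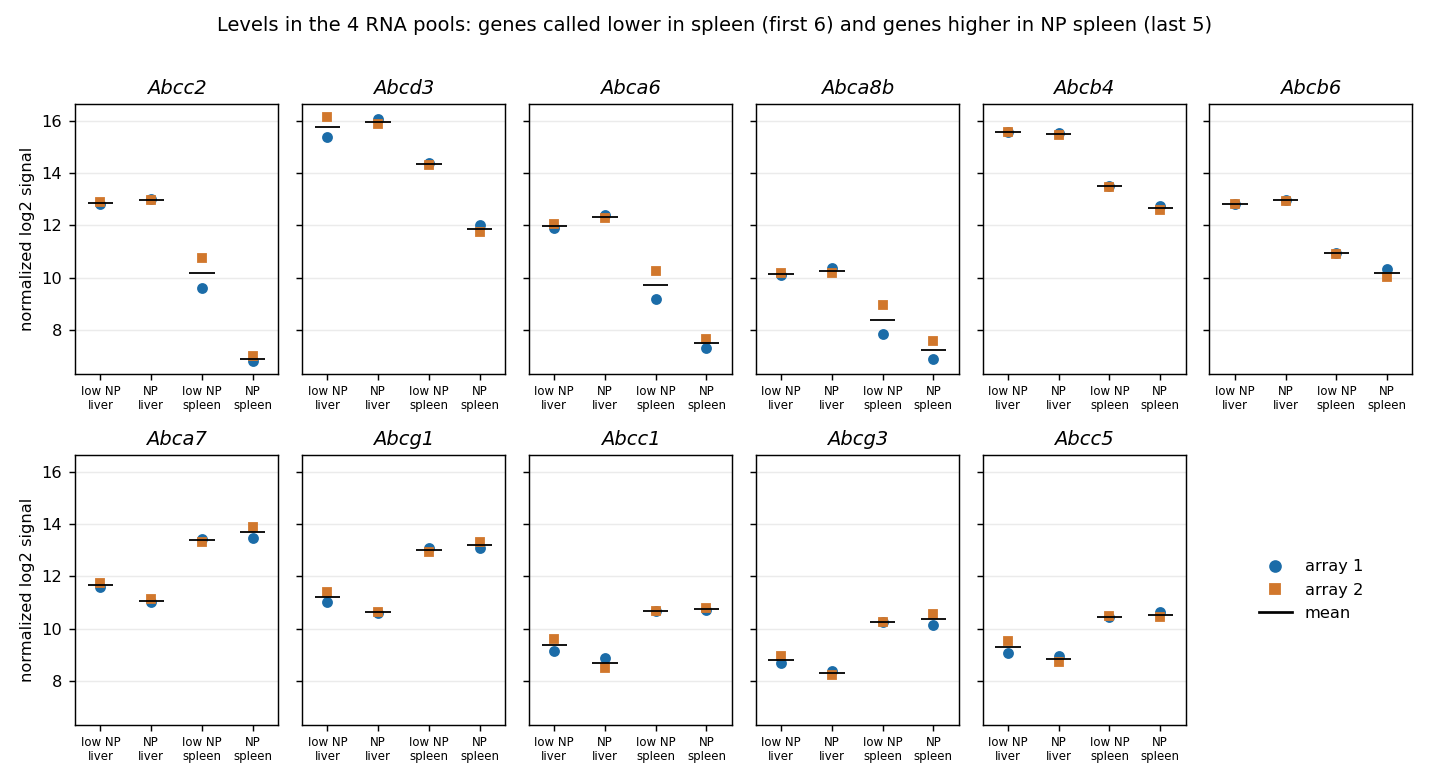
Log2 level (y axis) in each of the 4 pools, with 1 point per array, for the 6 genes called lower in NP spleen and the 5 genes higher in NP spleen than in NP liver. The low-NP spleen pool lies between the NP spleen pool and the liver pools for Abcc2, Abcd3, Abca6, Abca8b, Abcb4 and Abcb6, and each panel compares pools for a single probe.

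The place of the low-NP spleen pool between the NP spleen pool (0%) and the NP liver pool (100%) was computed on linear intensities where NP liver exceeded NP spleen by at least 4-fold. The 7 ABC transporters of this kind had a median place of 10.3% on array 1 and 20.2% on array 2, with single values from 8.28% to 26.8% and from 12.8% to 30.8%. Over all 1319 such genes the medians were 11.9% and 20.1%. Abcc2 was at 8.35% and 20.2%, Abcb4 at 11.9% and 13.7% and Abcd3 at 26.8% and 30.0%. The 8 hepatocyte markers had medians of 49.1% and 65.3%, with single values from 14.1% to 196% on array 1 and from 24.3% to 248% on array 2. In the opposite direction, 2 members at least 4-fold higher in NP spleen, Abca7 and Abcg1, put the low-NP liver pool at 8.87% and 11.03% of the way to NP spleen, beside 8.97% and 19.8% for 1074 genes and 13.7% and 20.5% for 5 B cell markers.

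The genes that work with these transporters were counted from lists that had been drawn up with earlier results known. Among all measured genes 3.63% were called lower in liver and 6.33% in spleen, and the counts below stand beside these shares. None of the 8 lists had a called gene in liver. In spleen, 6 of 8 hepatic uptake carriers and flippases were called lower, among them the bile acid and drug carriers Slco1b2 (-7.08 ± 0.60), Slc10a1 (-4.32 ± 0.55), Slco1a1 (-3.79 ± 0.87) and Slc22a7 (-2.45 ± 0.46), and the canalicular flippase Atp8b1 (-0.75 ± 0.12). The carriers take up compounds from blood into hepatocytes. Of 8 sterol, bile acid and xenobiotic receptors that control ABC genes 4 were called lower: the bile acid receptor Nr1h4 (-3.58 ± 0.74), the fatty acid receptor Ppara (-3.05 ± 0.22), the xenobiotic receptor Nr1i2 (-2.23 ± 0.84) and the shared partner Rxra (-0.69 ± 0.02). On array 2 the NP spleen pool did not stand well above background for Slco1a1 and Nr1i2. By the rough guide to background given for Abca6 and Abca8b, the NP spleen readings of Slco1b2, Slco1a1, Slc22a7, Nr1h4 and Nr1i2 were near background on both arrays. Those of Slc10a1, Ppara and Atp8b1 were near it on array 1. The sizes of these folds are thus uncertain beyond their ±.

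Of 9 peroxisomal partners of the D subfamily 4 were called lower in spleen, among them the enzymes of peroxisomal fatty acid breakdown Ehhadh (-1.95 ± 0.17) and Hsd17b4 (-0.83 ± 0.08), and the import receptor Pex7 (-0.75 ± 0.00). Among 7 heme and iron-sulfur partners, Alas1, the first enzyme of heme synthesis outside red cells, was called lower (-1.56 ± 0.09). None was called in the 6 partners of the TAP peptide transporter, the 8 translation factors or the 1 measured potassium channel gene. Of the 6 measured ABC genes that have other names or were left out by the rule 2 were called lower in spleen, the bile salt export pump Abcb11 (-5.50 ± 0.44) and the biliary sterol exporter Abcg5 (-4.03 ± 0.85). Abcg8, which pairs with Abcg5, was at -0.73 ± 0.59, Abca1 at -0.23 ± 0.19, and the peptide transporter genes Tap1 and Tap2 at 0.17 ± 0.22 and 0.32 ± 0.24. On array 2 the NP spleen readings of Abcg5 and Abcg8 were near background, so the sizes of their ratios are uncertain beyond their ±. The hepatocyte and pancreas markers given above were also lower in the NP spleen pool, and their part in the values of these lists was not tested.

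Promoters of the called members were compared as letters. RefSeq windows on GRCm38.p6, from 250 bases before to 50 after a start, were matched for 33 of the 45 members and for 5 of the 6 called members, the sixth being Abca6. The windows of Abcc2, Abcd3 and Abcb4 are shown because these had unlike base composition although all were lower in NP spleen. Capitals mark matches, on either strand, to 8 motifs. These were the GC box GGGCGG, the CCAAT box, the TATA box TATAAA, the HNF4 alpha element CAAAGTCCA, the C/EBP element TTGCNNAA, the antioxidant response core TGACNNNGC, an HNF1 element and the FXR inverted repeat. No matches overlapped in the 3 windows shown.
Abcc2, chr19:43782058-43782357, plus strand: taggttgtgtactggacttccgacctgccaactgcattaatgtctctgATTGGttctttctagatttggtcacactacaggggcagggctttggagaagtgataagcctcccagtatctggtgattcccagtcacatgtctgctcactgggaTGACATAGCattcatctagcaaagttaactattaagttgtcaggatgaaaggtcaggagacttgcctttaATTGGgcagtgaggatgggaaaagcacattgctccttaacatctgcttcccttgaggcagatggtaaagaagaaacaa
Abcd3, chr3:121815253-121815552, minus strand, the first of 2 windows: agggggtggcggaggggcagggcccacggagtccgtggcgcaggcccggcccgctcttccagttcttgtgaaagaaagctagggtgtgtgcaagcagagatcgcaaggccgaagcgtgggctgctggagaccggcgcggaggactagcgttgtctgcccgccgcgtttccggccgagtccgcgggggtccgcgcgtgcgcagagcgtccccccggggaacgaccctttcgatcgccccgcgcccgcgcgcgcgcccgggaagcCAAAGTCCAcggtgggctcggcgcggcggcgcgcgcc
Abcb4, chr5:8893471-8893770, plus strand: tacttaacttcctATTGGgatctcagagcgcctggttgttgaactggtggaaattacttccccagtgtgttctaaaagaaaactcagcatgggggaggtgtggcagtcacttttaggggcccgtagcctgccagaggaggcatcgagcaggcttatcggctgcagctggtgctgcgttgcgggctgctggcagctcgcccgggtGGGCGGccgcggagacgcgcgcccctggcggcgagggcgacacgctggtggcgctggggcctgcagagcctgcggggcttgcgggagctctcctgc

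The Abcc2 window had 45% G and C with 1 CpG, the Abcd3 window 73.7% with 45 CpGs and the Abcb4 window 64% with 21, beside medians of 52.7% and 7 over all 32851 windows. Abcc2 held the CCAAT box on the opposite strand at 2 places and the antioxidant response core at 1. Those motifs are in 37.4% and 12.4% of all windows. The Abcd3 window shown held the HNF4 alpha element, which 0.475% of all windows hold. The second Abcd3 window lacked it and held the C/EBP element. Abcb4 held the CCAAT box and the GC box, the latter in 35.7% of all windows. The Abcb6 window had the GC box, the CCAAT box and overlapping TATA boxes (13.6% of all windows), and the Abca8b window had the GC box, the C/EBP element (10.8%) and the antioxidant response core. No called member's window held the HNF1 element (0.399%) or the FXR inverted repeat (0.0396%). A match here is a run of letters and not a measured binding site.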

How the data were processed

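Liver and spleen RNA pools of the low-NP and NP diets were hybridised in pairs on Agilent 4 x 44K whole mouse genome arrays, with dyes exchanged between the 2 arrays of a tissue. The deposited scanner files hold mean foreground and median background intensity per spot and dye with quality flags, per the file headers, made with Agilent Feature Extraction 9.5.3.1, per the submitters' processing notes. The deposited value table holds log10 ratios, whose making is not described in the labels. Its columns correlated with the scanner's log10 ratio of Cy5 over Cy3 at -0.992, 0.990, -0.989 and 0.998, so the direction of each column is low NP over NP. The table keeps the scanner ratio's scale, its column medians were 0.03, -0.07, -0.01 and -0.04, and between 2.69% and 22.6% of its features differed from the scanner ratio beyond rounding, for a reason that stays unknown.

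Intensities were background-corrected with normexp (offset 50) and normalized by loess within arrays in limma 3.58.1 (R 4.3.3). The 1639 control spots of 45018 per array and spots marked as outliers (109 to 180 outside the controls) had no weight and were left out of gene values. Per-channel levels were scaled by Aquantile. Tables were made with Python 3.11.15, numpy 2.4.6 and pandas 2.3.3, and figures with matplotlib 3.10.9. Genes are gene names of the scanner files, with the brightest of their 41174 probes in all. Probe positions are mm7 as in those files. Exons and UTRs were not annotated here. All 45 members matched mouse RefSeq symbols of GRCm38.p6, used for names, gene order and promoter windows. A gene was called lower or higher at 1.5-fold or more in the same direction on both arrays, and tissues were compared within a dye at 2-fold in both dyes. The number of arrays, 2 per tissue, limits the precision. The call rule was tested on simulated data.

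The members, gene lists and marker lists were chosen with earlier results of these data known, so counts over them are descriptions. The genes named are members called in a tissue, the members with the largest and smallest ratio in each subfamily and tissue, up to 6 in each direction with the largest tissue difference past 2-fold (6 toward liver, 5 toward spleen), 16 members of known role, and called genes of the lists. Genes singled out outside this rule are said to be, and some genes under it are left unreported, though counts and medians include them. Alternatives were no background correction, the scanner's processed signals, median centring, both-channel and no filters, the mean of all probes, a stricter fold, single arrays and the deposited value table.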

Additional observations from a re-analysis of the deposited data

Results flagged for a closer look

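Of 26 named ABC transporters measured in both tissues, 8 had a diet ratio above 0 on both arrays of one tissue and below 0 on both arrays of the other. Over all members measured in both tissues it was 11 of 33, or 33.3%, beside 32.3% of all 16606 genes measured in both, so the count is near the background. The difference between tissues was not tested, since the arrays of a tissue were read as repeats of 1 pair of pools. The values below are the log2 ratio of NP over low NP in liver minus that in spleen. They were 3.40 for Abcc2, 2.60 for Abca6, 1.29 for Abca8b, 1.12 for Abcc6, 0.87 for Abcb6 and 0.37 for Abcd4, all 6 with the ratio above 0 in liver and below 0 in spleen. They were -0.91 for Abca7 and -0.79 for Abcc1, with the ratio below 0 in liver and above 0 in spleen. For Abcc2 and Abcc6 the NP spleen reading was not well above background on array 2, which limits how exact their values are. The same limit holds for Abca6 and Abca8b, whose NP spleen readings were near background on both arrays. Abcd4 had no array past 1.5-fold in either tissue. The hepatocyte markers in spleen and the B and T cell markers in liver were lower in the NP pools, with medians of -7.38, -3.18 and -2.39. Not all 8 genes went the same way as these markers in either tissue, and the part of the markers in the differences was not tested.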

How the results depend on the processing

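No paired analysis was possible because no test was run. The numbers that liver and spleen share run along with the dye orientation, and the labels do not settle whether they also mark separate pools. Under these alternatives no called value changed sign. Lower in liver were 0 members as reported, 4 without background correction, 2 with the processed signals and 3 with the deposited value table. Of all genes measured in liver 3.63%, 7.80%, 10.3% and 10.3% were lower under these settings, in that order. The liver median of 0.07 became 0.017 without background correction, 0.020 without a filter, 0.13 with processed signals, 0.19 with median centring and 0.13 with the value table, beside all-gene medians of 0.00, 0.01, 0.11, 0.06 and 0.10. The spleen median of -0.03 became 0.11, -0.20 and 0.10 with processed signals, median centring and the value table, beside all-gene medians of 0.10, -0.15 and 0.10. In spleen 5 or 6 members were lower at 1.5-fold and 3 at 2-fold (Abca6, Abcc2 and Abcd3). Abcb6 was lost with processed signals and the value table, Abca8b with the mean of all probes, and Abcc2 was not measured when both channels had to be above background. The tissue comparison gave 7 liver-high and 2 spleen-high members at 4-fold, beside 1319 and 1074 of all 18730 measured genes. With processed signals 12 members were spleen-high instead of 5. The share over all genes was not computed for that setting, so the rise cannot be read as particular to these members.

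On single arrays, without replicate 1 or 2, 0 to 5 members were lower and 0 to 1 higher in liver (Abcd3 on array 1). In spleen 6 to 9 were lower and 0 to 1 higher (Abcg4 on array 2). Of all measured genes 4.11% to 11.3% were lower on 1 array in liver and 6.72% to 9.05% in spleen. Medians ran from 0.0056 to 0.072 in liver and from -0.15 to -0.049 in spleen. On single arrays 5 to 8 members were spleen-high, without a share over all genes to set beside them. Over all liver genes, the 621 lower and 12 higher became 1333 lower without background correction, 1755 and 303 with processed signals, 1762 and 312 with the value table, 324 lower with median centring, 296 and 6 at 2-fold, and up to 1924 and 345 on 1 array. In spleen 8 higher genes became 48 with processed signals or the value table, 3 with median centring, 1 at 2-fold and 50 to 130 on 1 array, and 1175 lower became 775 at 2-fold. Single ratios of the named members moved by more than the spread of their arrays 34 times in liver and 41 times in spleen, against 218 in each tissue that did not. Single arrays always lie within that spread of their mean, and the filter settings reuse the same ratios. These settings could not count as moved, so the 218 do not measure stability.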
